A study of Mus musculus with 8 samples.

Results

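The basement membrane genes examined here were Col4a1, Col4a2, Lama1, Lama5, Lamb1, Lamc1, Nid1, Nid2, Hspg2 and Sparc. They were chosen by name and with earlier results of these data known. They are the genes for the main collagen IV chains, laminin chains, nidogens and perlecan together with the collagen-binding protein SPARC. Each was matched by its Ensembl identifier to its row among the 55335 genes of the count table. All 10 were found, and all 10 were among the 16504 genes with enough reads to be tested. The libraries came from E14 cells, a line of mouse embryonic stem cells (ESCs), grown on gelatin with serum, LIF and the inhibitors CHIR99021 and PD0325901. Every group, control included, had been infected with a lentivirus and selected with puromycin. The 4 groups of 2 libraries carried a negative control shRNA (control), shRNA against the pluripotency factor Sox2 (Sox2-KD), shRNA against the RNA-binding protein gene Hnrnpk (hnRNPK-KD) or shRNA against the elongation kinase gene Cdk9 (Cdk9-KD), where KD stands for knockdown. The infected populations were not described as clones, and which of the shRNAs against a gene each library carried is not given in the sources used here. The comparisons asked how the basement membrane genes were expressed after each knockdown.

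A basement membrane is a thin sheet of extracellular matrix on which epithelial cells sit. Laminins, which are trimers of an alpha, a beta and a gamma chain, assemble into a network at the cell surface. Collagen IV, a trimer mostly of alpha 1 and alpha 2 chains, forms a covalently crosslinked network beside it, and nidogens and the heparan sulfate proteoglycan perlecan connect the networks. In the early mouse embryo, the first basement membranes separate the epiblast, which ESCs resemble, from the primitive endoderm, and the parietal endoderm derived from it secretes large amounts of laminin, collagen IV and SPARC.

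The libraries held between 16709201 and 17719366 counts assigned to genes. The 8 ESC markers, Pou5f1 and Nanog among them, were detected in every library, and their summed level lay between 5090 and 7374 CPM (counts scaled to library size by TMM, the trimmed mean of M values). In CPM, Sox2 measured 412 and 530 in control against 320 and 283 in Sox2-KD, and Cdk9 measured 109 and 129 in control against 73.0 and 53.1 in Cdk9-KD. Hnrnpk measured 1093 and 1129 in control, and its libraries labelled hnRNPK-KD had 696 (replicate 1) and 1143 (replicate 2). The mRNA was thus lower in replicate 1 alone. The group is called by its label in what follows, since any direction taken from it includes a library without lower Hnrnpk mRNA.

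In control E14 ESCs the 10 genes fell into an abundant set of 7 and a scarce set of 3. Levels are given as RPKM, the TMM-scaled CPM per kilobase of the union of a gene's exons, so that genes of different length can be set side by side. Lamc1 had the highest control level, at 87.8 ± 4.05 RPKM (SD, n = 2), followed by Nid2 at 74.4 ± 1.75, Nid1 at 54.7 ± 6.82 and Sparc at 40.6 ± 8.92 RPKM. Hspg2, Lama5 and Lama1 had control levels of 30.7 ± 3.36, 29.9 ± 7.60 and 23.7 ± 1.85 RPKM, and the libraries of Hspg2 overlapped those of Lama5, as those of Lama5 overlapped those of Lama1. Lamb1 was far lower, at 1.65 ± 0.109 RPKM, and Col4a1 and Col4a2 were lowest, at 0.669 ± 0.513 and 0.586 ± 0.241 RPKM. These last genes overlapped each other, and apart from these overlaps the control libraries of neighbours in this order did not overlap. The order of Nid1 and Sparc depended on the length used. Per kilobase of the longest transcript, Sparc was at 56.5 and 77.2 RPKM and Nid1 at 56.9 and 67.9 RPKM in the control libraries, and they overlapped. In Sox2-KD, by the exon union, Nid2 (126 ± 10.4 RPKM) and Sparc (108 ± 21.5 RPKM) stood above Lamc1 (77.5 ± 2.41 RPKM) and overlapped each other. Lama5 (48.9 ± 4.46 RPKM) came next, then Nid1 and Hspg2 (29.4 ± 4.52 and 24.4 ± 3.55 RPKM), which overlapped, and Lama1 at 11.7 ± 3.63 RPKM. Col4a1, Col4a2 and Lamb1 remained lowest, at 2.15 ± 0.917, 1.57 ± 0.173 and 1.21 ± 0.506 RPKM, with overlap between neighbours. In the hnRNPK-KD-labelled libraries the highest genes were Lamc1 and Nid2, at 82.6 ± 3.38 and 82.5 ± 3.46 RPKM, and in Cdk9-KD they were Nid2 and Lamc1, at 92.2 ± 5.58 and 72.4 ± 12.0 RPKM.

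**Figure D1:**
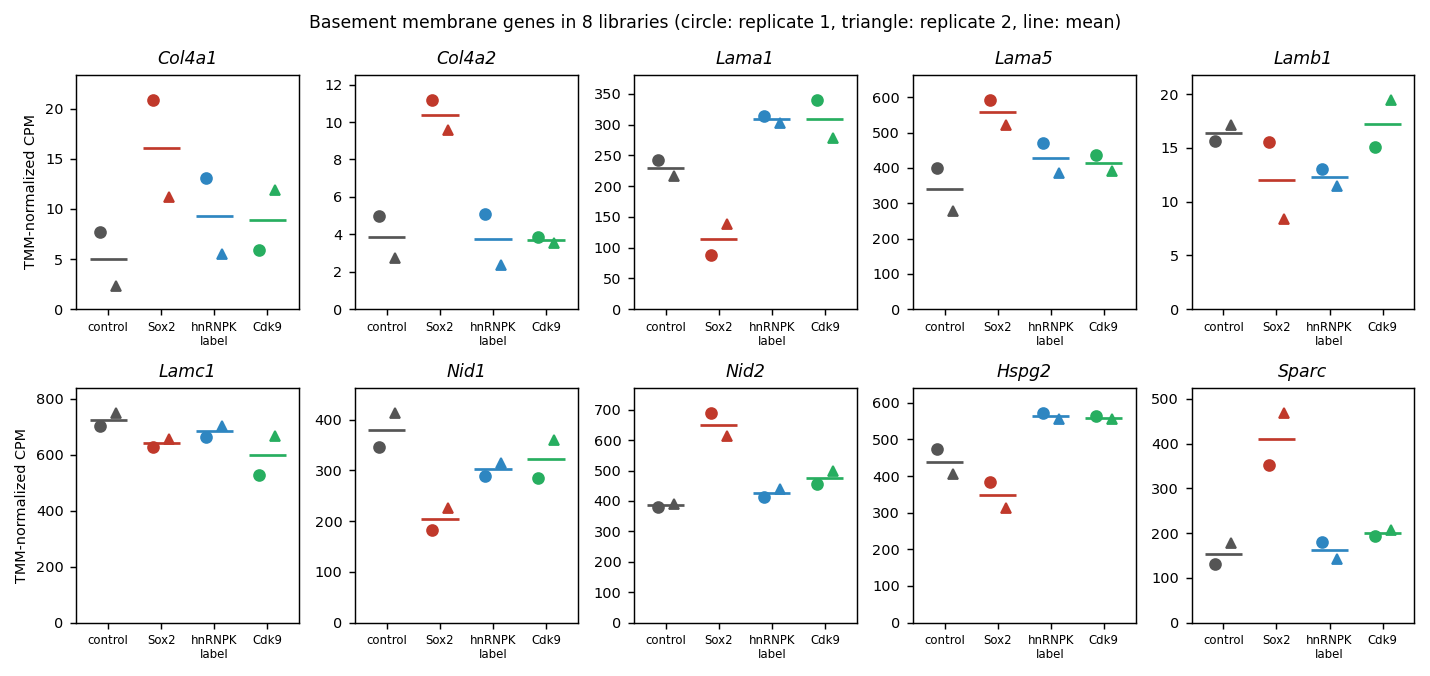
TMM-normalized CPM (vertical axis, from 0) of the 10 basement membrane genes in each of the 8 libraries, by group (horizontal axis), where circles are replicate 1, triangles replicate 2 and lines the group mean of 2 libraries. At the Sox2 position of their panels, both points of Sparc (353 and 468 CPM) and of Nid2 (689 and 613 CPM) lie above all other libraries. Both points of Lama1 (88.7 and 138 CPM) and of Nid1 (182 and 226 CPM) at that position lie below all other libraries.

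In Sox2-KD E14 ESCs, the basement membrane genes did not change in a single direction. Sparc and Nid2 rose, and Lama1 and Nid1 fell, with adjusted p under 0.05 and an absolute log2 fold change (log2FC) over 0.6 in edgeR's quasi-likelihood test over all 16504 genes. Thus 2 of 10 genes were called higher, beside 2.63% of all genes tested, and 2 of 10 were called lower, beside 1.69%. The other 6, Col4a1, Col4a2, Lama5, Lamb1, Lamc1 and Hspg2, did not pass. Every one of the 10 genes had its Sox2-KD and control libraries apart, with Sox2-KD above in 5 genes and below in 5, while 53.3% of all genes tested were apart in this way. The median log2FC of the 10 genes was 0.27 and their median absolute log2FC was 0.83, beside 0.021 and 0.28 over all genes tested. Since the 10 genes were chosen with earlier results of these data known, these values cannot test whether the set changed more than other genes. In bulk RNA, fewer cells that express a gene and less of its RNA per cell cannot be told apart.

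**Figure D2:**
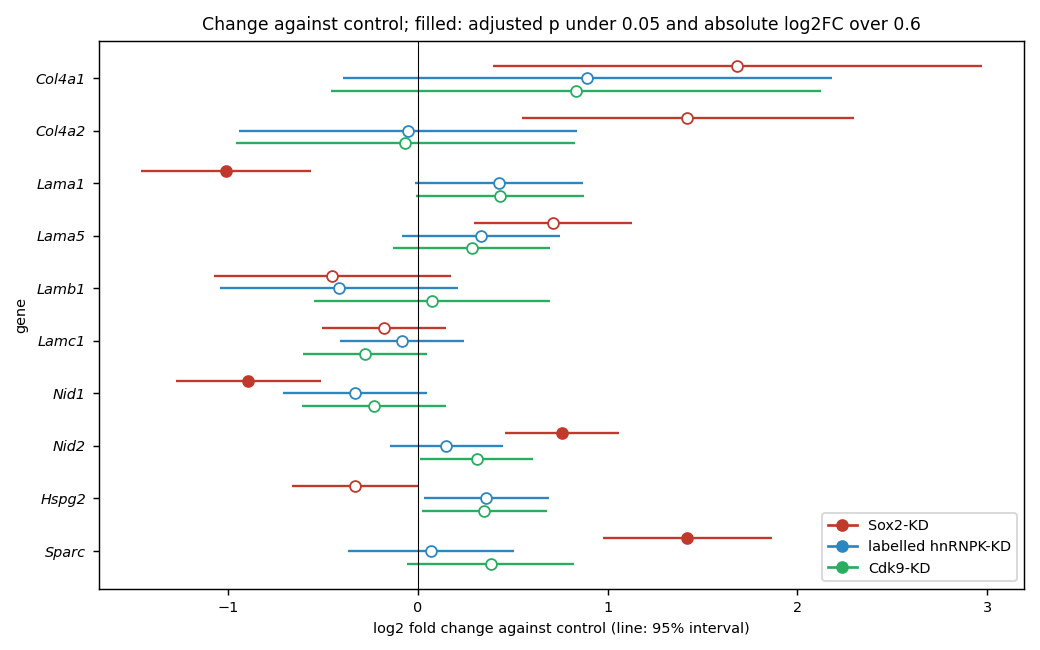
Log2FC against control (horizontal axis) of each of the 10 genes (vertical axis) in Sox2-KD, in the hnRNPK-KD-labelled libraries and in Cdk9-KD, with lines for the 95% interval from edgeR and filled points for genes past both thresholds. Filled points occur in Sox2-KD alone, for Sparc (1.42), Nid2 (0.76), Nid1 (-0.90) and Lama1 (-1.01), and the lines of Col4a1 and Col4a2 are the longest.

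Markers of other cell types moved in the same libraries, and their lists, too, were chosen with earlier results of these data known. Of 8 primitive endoderm markers, 6 had enough reads to be tested. In Sox2-KD 2 of these rose, beside 2.63% of all genes tested. They were the transcription factor gene Gata6 (log2FC 3.65, adjusted p = 0.0111 in edgeR) and the endocytic adaptor gene Dab2 (log2FC 5.85, adjusted p = 0.000187). Gata6 averaged 0.26 CPM in control, 0.35 in the hnRNPK-KD-labelled libraries, 0.12 in Cdk9-KD and 3.28 in Sox2-KD. It had enough reads to be tested because of Sox2-KD alone. The list summed to 4.22 and 5.66 CPM in control and to 43.4 and 63.4 CPM in Sox2-KD. Foxa2 was at 0 in Sox2-KD replicate 2, and all other members were detected in both Sox2-KD libraries. Of 8 trophoblast markers, 6 were tested and 4 rose, beside the same 2.63% of all genes. They were the keratin genes Krt7, Krt8 and Krt18 and the transcription factor gene Gata3, with log2FC from 2.97 (Krt8) to 4.34 (Krt18). Outside Sox2-KD, group means were at most 0.28 CPM for Krt7 and 0.23 CPM for Gata3. These 2 genes, too, had enough reads to be tested because of Sox2-KD alone (4.07 and 2.60 CPM). The list summed to 85.4 and 98.9 CPM in control and to 179 and 312 CPM in Sox2-KD, with Elf5 at 0 in replicate 1. The other tested members, Cdx2 and Tfap2c, had lower values in both Sox2-KD libraries without passing (log2FC -2.15, adjusted p = 0.0521, and -0.50, adjusted p = 0.398). Parietal endoderm markers summed to 303 and 298 CPM in control and to 178 and 117 CPM in Sox2-KD, and Vim, an intermediate filament gene that many other cell types express too, made up most of the sum (279 and 260 CPM in control, 148 and 93.0 CPM in Sox2-KD). All 6 were tested, and Vim alone passed and fell (log2FC -1.16, adjusted p = 0.0171), beside 1.69% of all genes tested that were called lower. The median log2FC of the list was 0.32, and Plat was at 0.787 and 1.49 CPM in control and at 2.20 and 3.42 CPM in Sox2-KD, which did not pass (adjusted p = 0.165). Of 7 visceral endoderm markers, 3 were tested and none passed in edgeR. None was found at an unadjusted p under 0.05 either, beside 19.3% of all genes tested. The list summed to 11.6 and 11.04 CPM in control and to 8.83 and 24.6 CPM in Sox2-KD. Ttr was at 0 in both Sox2-KD libraries, and Afp and Apoa1 were at 0 in Sox2-KD replicate 1. Of 8 fibroblast and mesenchyme markers, 5 were tested and Lum rose in Sox2-KD, beside 2.63% of all genes tested. Lum averaged 0.029 CPM in control, at most 0.059 CPM in the other knockdowns and 1.001 CPM in Sox2-KD. Lum, too, had enough reads to be tested because of Sox2-KD alone. No member was called lower, and the median log2FC of the list was -0.28. The list summed to between 5.13 and 6.52 CPM in the control and Sox2-KD libraries. None of the 8 ESC markers passed in edgeR, and 1 was lower at an unadjusted p under 0.05. In either direction, 19.3% of all genes tested were found at that p. The part of these marker genes' cells in the basement membrane results was not tested.

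Col4a1 and Col4a2 encode the alpha 1 and alpha 2 chains of the common form of collagen IV. They lie head to head on chromosome 8 (GRCm38), Col4a1 (ENSMUSG00000031502.11) on the minus strand from 11198423 to 11312826 and Col4a2 (ENSMUSG00000031503.13) on the plus strand from 11312805 to 11449287, so that their first exons share 22 bases on opposite strands. The promoter windows of RefSeq (GRCm38.p6), from 250 bases before each gene's start to 50 after it, cover chr8:11312777-11313076 on the minus strand for Col4a1 and chr8:11312555-11312854 on the plus strand for Col4a2. They are shown because the 78 bases in capitals are the same stretch of DNA, chr8:11312777-11312854, read from opposite strands, and hold the start of both genes.
Col4a1: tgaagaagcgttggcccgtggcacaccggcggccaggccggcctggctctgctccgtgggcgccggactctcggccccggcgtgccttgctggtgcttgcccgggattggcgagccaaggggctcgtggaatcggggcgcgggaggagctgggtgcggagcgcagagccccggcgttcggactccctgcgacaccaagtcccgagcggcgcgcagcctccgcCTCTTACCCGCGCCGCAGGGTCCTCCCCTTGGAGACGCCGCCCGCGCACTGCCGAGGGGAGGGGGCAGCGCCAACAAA
Col4a2: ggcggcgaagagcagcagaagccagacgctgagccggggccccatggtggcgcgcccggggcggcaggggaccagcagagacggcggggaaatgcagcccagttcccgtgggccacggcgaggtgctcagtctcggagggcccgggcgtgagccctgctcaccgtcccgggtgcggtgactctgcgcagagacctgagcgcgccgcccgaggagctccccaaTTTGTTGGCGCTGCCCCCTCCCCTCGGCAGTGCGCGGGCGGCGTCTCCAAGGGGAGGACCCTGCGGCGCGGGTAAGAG
The windows held 74.0% and 73.7% G and C. Among letters searched on both strands, GGGCGG occurred 1 time in the Col4a1 window and 3 times in the Col4a2 window, CCAAT occurred 1 time in each, and TATAAA and ACAAAG occurred in neither. Of 32851 RefSeq windows of this length, 35.7% held GGGCGG, 37.4% CCAAT, 13.6% TATAAA and 18.7% ACAAAG, and no match overlapped another in the windows of these genes.

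Both collagen IV genes were scarce in every group, and their values were imprecise. Col4a1 had 137 and 40 counts (7.70 and 2.29 CPM) in the control libraries, 381 and 197 (20.9 and 11.2 CPM) in Sox2-KD, 224 and 94 (13.1 and 5.46 CPM) in the hnRNPK-KD-labelled libraries and 101 and 202 (5.89 and 11.9 CPM) in Cdk9-KD. The Sox2-KD libraries lay above both control libraries, but Sox2-KD replicate 2 lay below the highest library of either other group. Its log2FC in Sox2-KD against control was 1.68 (standard error (SE) 0.58, adjusted p = 0.138 in edgeR), with a 95% interval from 0.39 to 2.97, and did not pass. Leaving out a control library moved it to 1.05 (replicate 2) or 2.79 (replicate 1). Col4a2 had 89 and 48 counts (5.01 and 2.75 CPM) in control, 204 and 168 (11.2 and 9.57 CPM) in Sox2-KD, 87 and 41 (5.09 and 2.38 CPM) in the hnRNPK-KD-labelled libraries and 66 and 60 (3.85 and 3.54 CPM) in Cdk9-KD. Both Sox2-KD libraries were above all 6 other libraries. Its log2FC was 1.42 (SE 0.40, adjusted p = 0.0725), also not past the threshold, and the gene passed with DESeq2, with edgeR's likelihood ratio test and when either hnRNPK-KD-labelled library was left out. Leaving out a control library moved its log2FC to 1.04 (replicate 2) or 1.90 (replicate 1). On simulated counts, 22 of 143 calls by DESeq2 and 34 of 167 by the likelihood ratio test were false. For the quasi-likelihood test these were 11 of 129. Per kilobase of the longest transcript, the ratio of Col4a1 to Col4a2 ranged from 0.813 in control replicate 2 to 3.28 in Cdk9-KD replicate 2, and the Sox2-KD values of 1.82 and 1.14 lay between these extremes.

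Lama1 encodes the alpha 1 chain of laminin 111, the main laminin of the earliest embryonic basement membranes, and Lama5 the alpha 5 chain of laminins 511 and 521, on which pluripotent cells adhere and self-renew. Lama1 (ENSMUSG00000032796.8, chromosome 17, plus strand, 67697259 to 67822647) was at 242 and 217 CPM in control, 88.7 and 138 in Sox2-KD, 314 and 303 in the hnRNPK-KD-labelled libraries and 341 and 278 in Cdk9-KD. The Sox2-KD libraries were the lowest of the 8. Lama1 fell by 1.01 on the log2 scale in Sox2-KD against control (SE 0.20, adjusted p = 0.0215). This call was lost without control replicate 1 (adjusted p = 0.113), control replicate 2 (0.0789) or Sox2-KD replicate 1 (0.0957), with a log2FC between -1.37 and -0.74 when any library was left out. Lama5 (ENSMUSG00000015647.9, chromosome 2, minus strand, 180176373 to 180225859) was at 401 and 279 CPM in control, 593 and 521 in Sox2-KD, 471 and 385 in the hnRNPK-KD-labelled libraries and 436 and 391 in Cdk9-KD. The Sox2-KD libraries were the highest of the 8. The log2FC of Lama5 in Sox2-KD against control was 0.71 (SE 0.19, 95% interval 0.30 to 1.13), and its adjusted p of 0.0603 in edgeR's quasi-likelihood test did not pass. It did with DESeq2, with the likelihood ratio test or with library totals in place of TMM. DESeq2 and the likelihood ratio test made more false calls on simulated counts than the quasi-likelihood test.

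With Lama1 lower and the values of Lama5 higher, the makeup of the alpha chain mRNA in Sox2-KD differed from that in control, while its sum was close to the higher of the control libraries. Per kilobase of the longest transcript, the 5 alpha chain genes summed to 61.9 and 48.9 RPKM in control and to 62.9 and 63.6 RPKM in Sox2-KD. The share of Lama1 in that sum was 41.1% and 46.5% in control, 14.8% and 22.9% in Sox2-KD, 43.8% and 47.9% in the hnRNPK-KD-labelled libraries and 47.4% and 45.0% in Cdk9-KD. Both Sox2-KD libraries lay below all 6 others. The share of Lama5 was 56.9% and 50.05% in control and 82.8% and 72.1% in Sox2-KD, and lay between 50.8% and 55.0% in the remaining libraries. Lama3, the alpha chain of epithelial laminin 332, never exceeded 4.04%, and Lama2 and Lama4 stayed under 1%. These shares are given as a description, since they were not tested apart from their genes. With 2 libraries a group, an exact permutation test of a share could not have reached p under 0.05.

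**Figure D3:**
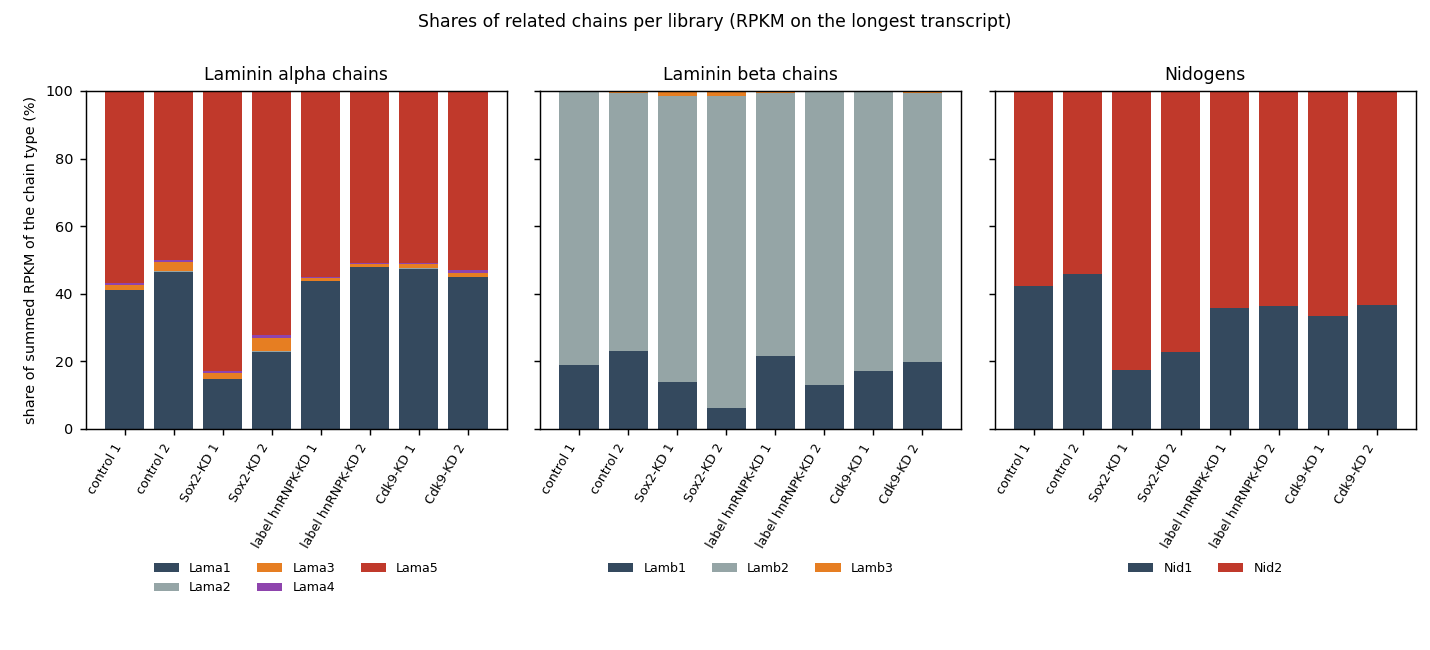
Share of each chain in the summed RPKM (percent, vertical axis, longest transcript length) of laminin alpha chains, laminin beta chains and nidogens in each of the 8 libraries (horizontal axis). The dark Lama1 segment takes 14.8% and 22.9% in Sox2-KD beside 41.1% to 47.9% elsewhere, and the dark Nid1 segment takes 17.4% and 22.8% in Sox2-KD beside 33.3% to 45.8% elsewhere.

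The beta and gamma chains are shared between laminin 111 and laminin 511, and neither Lamb1 nor Lamc1 passed the test in Sox2-KD. Lamc1 (ENSMUSG00000026478.14, chromosome 1, minus strand, 153218922 to 153332786), the gamma 1 chain gene, was at 702 and 750 CPM in control, 627 and 655 in Sox2-KD, 664 and 703 in the hnRNPK-KD-labelled libraries and 528 and 669 in Cdk9-KD. The Sox2-KD libraries lay under both control libraries and within the range of the others, and the log2FC was -0.18 (SE 0.15, adjusted p = 0.561, 95% interval -0.51 to 0.15). Lamb1 (ENSMUSG00000002900.16, chromosome 12, plus strand, 31265234 to 31329644), the beta 1 chain gene, was at 15.6 and 17.2 CPM in control, 15.5 and 8.43 in Sox2-KD, 13.1 and 11.5 in the hnRNPK-KD-labelled libraries and 15.1 and 19.5 in Cdk9-KD. Sox2-KD replicate 1 all but equalled control replicate 1, and replicate 2 was the lowest of the 8 libraries. The log2FC of -0.45 had an SE of 0.28, a 95% interval from -1.08 to 0.18 and an adjusted p of 0.432. Most beta chain mRNA came from Lamb2, the beta 2 chain of laminin 521, which held between 76.3% and 92.3% of the summed beta chain RPKM per longest transcript, and Lamb1 held between 6.19% and 23.1%. Lamb2 itself was at 65.3 and 55.2 CPM in control and at 90.9 and 122 CPM in Sox2-KD, above all other libraries, with a log2FC of 0.82 (SE 0.23, adjusted p = 0.0741) that did not pass. The summed beta chain RPKM was 14.4 and 12.9 in control and 19.1 and 23.6 in Sox2-KD. Lamc1 held between 88.6% and 96.4% of the gamma chain RPKM. Per longest transcript, the level of Lamc1 was between 26.1 and 59.0 times that of Lamb1 in the same library.

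Nid1 and Nid2 encode nidogen 1 and nidogen 2, related glycoproteins that bind both laminin and collagen IV. In Sox2-KD they moved in opposite directions. Nid1 (ENSMUSG00000005397.8, chromosome 13, plus strand, 13437551 to 13512269) was at 347 and 413 CPM in control, 182 and 226 in Sox2-KD, 289 and 315 in the hnRNPK-KD-labelled libraries and 285 and 361 in Cdk9-KD. The Sox2-KD libraries were the lowest of the 8. Nid1 fell by 0.90 on the log2 scale (SE 0.17, adjusted p = 0.0192). Nid2 (ENSMUSG00000021806.4, chromosome 14, plus strand, 19751265 to 19811787) was at 379 and 391 CPM in control, 689 and 613 in Sox2-KD, 414 and 439 in the hnRNPK-KD-labelled libraries and 457 and 498 in Cdk9-KD. The Sox2-KD libraries were the highest of the 8, and the control libraries the lowest. The log2FC of Nid2 was 0.76 (SE 0.14, adjusted p = 0.0137). Both nidogen calls were lost when any of the 4 control and Sox2-KD libraries was left out, with an adjusted p between 0.0516 and 0.134 for Nid1 and between 0.0593 and 0.112 for Nid2.

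Nid2 held 57.7% and 54.2% of the summed nidogen RPKM per longest transcript in control, 82.6% and 77.2% in Sox2-KD, and between 63.3% and 66.7% in the hnRNPK-KD-labelled libraries and in Cdk9-KD. The Sox2-KD libraries thus lay above all others, and the control libraries below them. The exons of Nid2 share 437 bases with those of Rtraf on the opposite strand, a gene with between 2992 and 4109 counts per library, and whether the counting used strand is not stated, so that some reads of either gene may be counted for the other. Rtraf was at 211 and 235 CPM in control, 191 and 188 in Sox2-KD, 214 and 189 in the hnRNPK-KD-labelled libraries and 184 and 177 in Cdk9-KD. The part of Rtraf reads in the values of Nid2 was not tested. The exons of Nid1 share 143 bases with the antisense gene Gm48682, which had at most 1 count in any library. The RefSeq promoter window of Nid1, chr13:13437352-13437651 on the plus strand, is shown because Nid1 was the only gene called in Sox2-KD against control for which a window with any of the letters searched was found. Capitals mark GGGCGG and ATTGG, which is CCAAT on the other strand.
Nid1: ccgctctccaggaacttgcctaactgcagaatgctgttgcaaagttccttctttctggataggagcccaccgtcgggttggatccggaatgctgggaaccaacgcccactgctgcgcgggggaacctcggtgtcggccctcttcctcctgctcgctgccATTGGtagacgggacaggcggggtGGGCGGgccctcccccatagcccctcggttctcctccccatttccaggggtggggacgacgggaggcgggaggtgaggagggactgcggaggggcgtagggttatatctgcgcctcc

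Among the members, 7 had a RefSeq window, and Lama1, Lamc1 and Nid2 had none in the table used. GGGCGG occurred 4 times in the window of Lama5, 2 times in that of Lamb1 and 5 times in that of Hspg2, and CCAAT occurred 1 time in that of Lamb1. The window of Sparc held 55.3% G and C and none of the 4 motifs. Its RefSeq start, at 55420080 on chromosome 11, lies inside the gene as the GENCODE annotation draws it.

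Hspg2 encodes the core protein of perlecan. The gene's identifier was ENSMUSG00000028763.18 in the counts and ENSMUSG00000028763.17 in the annotation that gave its position. Hspg2 (chromosome 4, plus strand, 137468769 to 137570630) was at 473 and 405 CPM in control, 384 and 313 in Sox2-KD, 572 and 555 in the hnRNPK-KD-labelled libraries and 564 and 554 in Cdk9-KD. Sox2-KD had the lowest libraries, control lay between, and the other groups were highest and close together. Against control, the log2FC in Sox2-KD was -0.33 (SE 0.15, adjusted p = 0.255, 95% interval -0.66 to -0.0025), which did not pass.

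Sparc encodes a secreted protein that binds collagens, collagen IV among them, and is produced in quantity by parietal endoderm. Sparc (ENSMUSG00000018593.13, chromosome 11, minus strand, 55394500 to 55423183) was at 130 and 178 CPM in control, 353 and 468 in Sox2-KD, 181 and 142 in the hnRNPK-KD-labelled libraries and 194 and 207 in Cdk9-KD. Both Sox2-KD libraries exceeded every other library, Cdk9-KD came next, and the hnRNPK-KD-labelled libraries overlapped control. Sparc rose 2.67-fold in Sox2-KD against control (log2FC 1.42, SE 0.20, adjusted p = 0.00563). It was the only one of the 10 genes that stayed past both thresholds whichever library was left out, with a log2FC between 1.19 and 1.65 and an adjusted p of at most 0.0496.

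**Figure D4:**
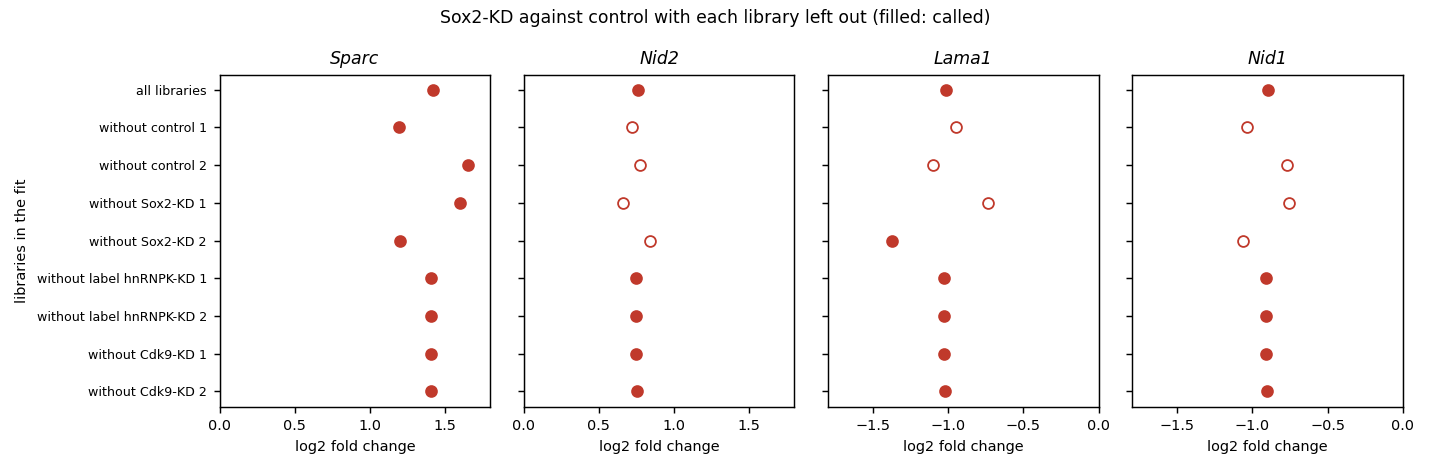
Log2FC in Sox2-KD against control (horizontal axis) of the 4 called genes with all 8 libraries and with each library left out in turn (vertical axis), with filled points past both thresholds in edgeR. Sparc is filled throughout (1.19 to 1.65), and Nid1 and Nid2 are open whenever a control or Sox2-KD library is left out.

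In the hnRNPK-KD-labelled libraries, none of the 10 genes passed the thresholds against control in edgeR, as none of the 16504 genes tested did (0%), and DESeq2 called none of the 10. At an unadjusted p under 0.05, 1 of 10 genes was found, Hspg2 with a log2FC of 0.36 (adjusted p = 0.586 in edgeR), beside 8.03% of all genes tested. Lama1 had a log2FC of 0.43 (SE 0.20, adjusted p = 0.637) and Nid1 of -0.33 (SE 0.17, adjusted p = 0.676). Of the 10 genes, 5 had libraries apart from control, 3 higher and 2 lower, beside 39.1% of all genes tested. The intervals of Col4a1 and Col4a2 ran from -0.40 to 2.18 and from -0.95 to 0.84. Neither gene passed in edgeR when Sox2-KD was set directly against these libraries. The log2FC was 0.79 for Col4a1 (adjusted p = 0.460) and 1.47 for Col4a2 (adjusted p = 0.0563).

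In Cdk9-KD, likewise none of the 10 genes passed against control, beside 0.139% of all genes tested in edgeR, and none did with DESeq2. Unadjusted p values under 0.05 were found for 2 of 10 genes, Nid2 with a log2FC of 0.31 (adjusted p = 0.462 in edgeR) and Hspg2 with 0.35 (adjusted p = 0.459), beside 10.4% of all genes tested. Both had Cdk9-KD libraries above both control libraries. Lama1 had a log2FC of 0.43 (SE 0.20, adjusted p = 0.492) and Sparc of 0.38 (SE 0.20, adjusted p = 0.541). In all, 5 of 10 genes had libraries apart from control, 4 higher and 1 lower (Lamc1), beside 39.2% of all genes tested. These comparisons share the control libraries with that of Sox2-KD. Of the marker genes, Tfap2c of the trophoblast list fell in Cdk9-KD (log2FC -2.04, adjusted p = 0.0416), and no other marker was called in either comparison.

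Set directly against the other knockdowns, Sox2-KD differed from either in Lama1, Hspg2 and Sparc, in comparisons that share the Sox2-KD libraries. Against the hnRNPK-KD-labelled libraries, Sparc (log2FC 1.35, SE 0.20, adjusted p = 0.00619) and Nid2 (0.61, SE 0.14, adjusted p = 0.0283) were higher in Sox2-KD, 2 of 10 genes beside 3.95% of all genes. Lama1 (-1.44, SE 0.20, adjusted p = 0.00503) and Hspg2 (-0.69, SE 0.15, adjusted p = 0.0263) were lower, 2 of 10 beside 1.95%. These calls rest on libraries of which replicate 2 did not show lower Hnrnpk mRNA. Without that replicate, or without Sox2-KD replicate 2, Lama1 alone was called, 1 gene in place of 4. Hspg2 also lost its call with library totals in place of TMM, and Nid2 with no filter on low counts. Col4a2, with a log2FC of 1.47 (SE 0.40, adjusted p = 0.0563) and both Sox2-KD libraries higher, did not pass but did with DESeq2, with the likelihood ratio test and with library totals.

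Against Cdk9-KD, Sparc (log2FC 1.04, SE 0.20, adjusted p = 0.0121) and Col4a2 (1.49, SE 0.40, adjusted p = 0.0471) were higher in Sox2-KD, 2 of 10 genes beside 4.77% of all genes. Lama1 (-1.44, SE 0.20, adjusted p = 0.00301), Nid1 (-0.66, SE 0.17, adjusted p = 0.0436) and Hspg2 (-0.68, SE 0.15, adjusted p = 0.0215) were lower, 3 of 10 beside 2.56%. Lama1 was called whichever library was left out. It was called alone without Cdk9-KD replicate 2 or Sox2-KD replicate 2, with Nid1 without Cdk9-KD replicate 1, and with Hspg2 and Sparc without Sox2-KD replicate 1. Nid1 also lost its call without any single library of the control or hnRNPK-KD-labelled groups, with library totals and with at least 10 counts required in every library, and Col4a2 lost its call with no filter on low counts. With only the 4 libraries compared in the fit, Nid1 and Hspg2 were not called. In the fit of all libraries, Hspg2 thus differed between Sox2-KD and either other knockdown without passing in any comparison with control. Between Cdk9-KD and the hnRNPK-KD-labelled libraries, none of the 10 genes passed in edgeR, as no gene did (0%), and none was found at an unadjusted p under 0.05 beside 5.71% of all genes. DESeq2 called none of the 10.

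The wider set of basement membrane genes was read from 4 lists, also chosen with earlier results of these data known. Of 22 other components of basement membranes, 16 were tested and 1 rose in Sox2-KD, beside 2.63% of all genes tested, with a median log2FC of 0.52 beside 0.021 over all genes. This was Tinagl1, the gene of a laminin-binding matricellular protein, at 7.87 and 6.75 CPM in control and at 21.6 and 38.9 CPM in Sox2-KD (log2FC 2.05, SE 0.30, adjusted p = 0.00610). Its Sox2-KD libraries lay above all others. Of 17 genes for the folding, secretion and crosslinking of collagen IV, such as the prolyl hydroxylase gene P4ha1 and the chaperone gene Serpinh1, 15 were tested, none passed, 2 of 15 were found at an unadjusted p under 0.05 beside 19.3% of all genes tested, and the median log2FC was 0.12.

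Of 13 receptor genes, 12 were tested and 3 rose in Sox2-KD, beside the same 2.63% of all genes, with a median log2FC of 0.55. Bcam, the gene of a receptor for the laminin alpha 5 chain, was at 54.4 and 81.2 CPM in control and at 124 and 129 CPM in Sox2-KD (log2FC 0.90, SE 0.21, adjusted p = 0.0382). Itga3, an integrin subunit of the laminin receptor integrin alpha 3 beta 1, was at 20.2 and 19.5 CPM in control and at 48.0 and 50.7 CPM in Sox2-KD (log2FC 1.32, SE 0.24, adjusted p = 0.0137). Itga1, an integrin subunit of a collagen IV receptor, rose from 8 and 4 counts in control to 52 and 25 counts in Sox2-KD (log2FC 2.63, SE 0.64, adjusted p = 0.0426), a low level in every library. It averaged 0.34 CPM in control, 0.96 in the hnRNPK-KD-labelled libraries and 0.29 in Cdk9-KD. Itga1 had enough reads to be tested because of Sox2-KD. Of 12 protease and inhibitor genes, 11 were tested and 1 rose, again beside 2.63%, with a median log2FC of 0.58. This was Bmp1, the gene of a procollagen-processing protease, at 2.699 and 1.37 CPM in control and at 13.9 and 7.63 CPM in Sox2-KD (log2FC 2.40, SE 0.53, adjusted p = 0.0333). None of these 4 lists had a member called in the hnRNPK-KD-labelled libraries or in Cdk9-KD against control, and none had a member called lower in Sox2-KD. At an unadjusted p under 0.05, edgeR found 4, 1, 1 and 4 members of the lists, in the order given, in the hnRNPK-KD-labelled libraries, beside 8.03% of all genes, and 4, 3, 0 and 1 in Cdk9-KD, beside 10.4%.

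**Figure D5:**
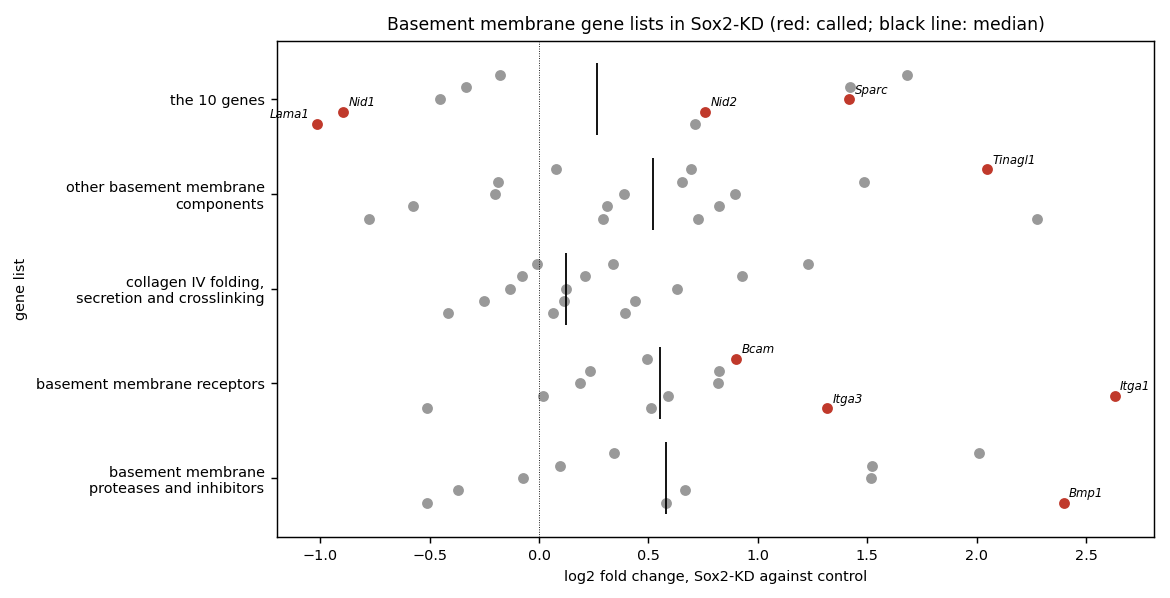
Log2FC in Sox2-KD against control (horizontal axis) of each tested gene of the 10 basement membrane genes and of 4 related lists (vertical axis, points spread for legibility), with called genes in red and named and a black line at each list's median. Medians lie at 0.27, 0.52, 0.12, 0.55 and 0.58 from top to bottom, and Lama1 and Nid1 are the only called genes to the left of 0.

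Across the 8 libraries, the members' log2 CPM values were described by Pearson's correlation, over points that share their library and its composition, with the differences between groups included. Nid2 and Sparc had the highest value among pairs of members (0.90), followed by Col4a1 and Lama5 (0.89), and Lama5 and Nid1 the most negative (-0.93). Col4a1 and Col4a2, despite their shared promoter region, were at 0.76. The 10 genes outside the set whose pattern was most like that of Col4a1 had correlations from 0.93 to 0.96. They were Serpini1, Zfp287, Caskin2, Hspa4l, Zfyve16, Tle2, Med20, Itga8, Phldb1 and Chrnb1, and 4 of them (Serpini1, Caskin2, Zfyve16 and Itga8) were also among the first 10 by Spearman's correlation.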

How the data were processed

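Total RNA was extracted from E14 ESCs, mRNA was purified with oligo(dT) beads and paired-end reads were generated on an MGISEQ-2000 instrument, with 2 biological replicates for each of 4 groups, so that p-values measure the spread between these libraries. The authors deposited raw counts per gene (GENCODE vM23, mm10), and the submitters' processing notes name FastQC, STAR 2.7.9a and featureCounts 2.0.1. The strand and multi-mapping settings are not given in the sources used here. Gene symbols, positions and exon lengths came from GENCODE vM21, an earlier version than that of the counts. They were matched by Ensembl identifier without its version number for 55154 genes, and 181 genes had no match.

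Genes with few reads were dropped by filterByExpr (at least 10 counts, at least 15 in total), and the others were scaled by TMM and tested with edgeR 4.0.16 (glmQLFit and glmQLFTest, R 4.3.3) in 1 fit of all 8 libraries with a group term. P-values were adjusted by Benjamini-Hochberg over 16504 genes, and genes were called at adjusted p under 0.05 and absolute log2FC over 0.6, the thresholds of the study's methods. The biological coefficient of variation was 18.6%. SE and 95% intervals were derived from the quasi-likelihood F. RPKM was computed from TMM-scaled CPM. The script was tested on counts simulated with the spread of these libraries, with 200 genes changed in Sox2-KD against control. The quasi-likelihood test called 40% of genes changed 2-fold and 78% of those changed 4-fold, and 11 of its 129 calls were false. A gene that did not pass may thus have changed. On the same counts, 22 of 143 calls by DESeq2 and 34 of 167 by the likelihood ratio test were false. Figures were drawn with matplotlib 3.10.9.

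The 10 genes and all lists were chosen with earlier results of these data known. The text names all 10 genes, the genes of each list called against control (up to 5 a list), the targeted genes, and the 10 tested genes with a mean log2 CPM over 1 that were most correlated with Col4a1. The ESC, endoderm, trophoblast and mesenchyme marker lists held between 6 and 8 genes. Alternatives were DESeq2 1.42.0, other scalings, filters and tests, only the 4 libraries compared, a replicate block and each library left out.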

Additional observations from a re-analysis of the deposited data

Results flagged for a closer look

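The knockdowns differed from each other, by a direct test, in 9 values of the basement membrane genes. Against the hnRNPK-KD-labelled libraries, Sox2-KD had a log2FC of -1.44 for Lama1, 0.61 for Nid2, -0.69 for Hspg2 and 1.35 for Sparc. Against Cdk9-KD, it had a log2FC of 1.49 for Col4a2, -1.44 for Lama1, -0.66 for Nid1, -0.68 for Hspg2 and 1.04 for Sparc. Each passed an adjusted p under 0.05 in edgeR's quasi-likelihood test, and both Sox2-KD libraries were on the same side of both libraries of the other group. Replicate 2 with the hnRNPK-KD label did not show lower Hnrnpk mRNA. With 2 libraries a group, no group was large enough for a test of outlying samples.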

How the results depend on the processing

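For Sox2-KD against control, 4 genes were called, 6 with DESeq2, the likelihood ratio test or a replicate block (which added Col4a2 and Lama5 in each), 5 with library totals and 4 under the other settings, and 1 to 5 with a library left out. Against the hnRNPK-KD-labelled libraries the count of 4 became 3 to 5, and 1 to 5 with a library left out. Against Cdk9-KD the count of 5 became 3 with only the 4 libraries compared, 4 with library totals, no filter or at least 10 counts in every library, and 1 to 4 with a library left out. The 3 other comparisons had 0 calls throughout. The cause of these moves was not tested.

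The values that changed sign belonged to genes not called in that comparison. Lama1 in Cdk9-KD against the hnRNPK-KD-labelled libraries became -0.00184 (DESeq2), -0.00290 (DESeq2-type size factors) and -0.00386 (no filter). With library totals, Lamb1 became 0.071 and Lamc1 0.016 in Sox2-KD against the hnRNPK-KD-labelled libraries, and Col4a2 became 0.019 and Hspg2 0.022 in Cdk9-KD against them. With the replicate block, the last comparison gave 0.18 for Col4a1 and 0.057 for Col4a2. With a library left out, log2FC against control ranged from -0.71 to 0.42 (Col4a2) and from -0.16 to 0.30 (Sparc) in the hnRNPK-KD-labelled libraries, and from -0.46 to 0.39 (Col4a2) and from -0.12 to 0.22 (Lamb1) in Cdk9-KD. In Sox2-KD, Lamb1 ranged from -0.55 to 0.34 against the hnRNPK-KD-labelled libraries and Lamc1 from -0.042 to 0.27 against Cdk9-KD. In Cdk9-KD against the hnRNPK-KD-labelled libraries, the ranges were -0.66 to 0.68 (Col4a1), -0.47 to 0.61 (Col4a2), -0.16 to 0.14 (Lama1), -0.20 to 0.081 (Lama5) and -0.084 to 0.24 (Nid1). Of the gene values under the alternatives that kept all replicates, 453 kept direction and side of the threshold, 11 newly passed and 7 no longer passed.

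Libraries with the same replicate number had correlated deviations between -0.22 and 0.21 across genes, so the numbers were not taken to pair samples, and the replicate block is given for completeness. With crossed numbers for Sox2-KD against Cdk9-KD, an alternative chosen after seeing the data, 6 genes were called. Library totals moved the median log2FC of all genes in Sox2-KD against control from 0.021 to 0.090. Over all genes, calls ranged over all alternatives from 144 to 1350 (713 in the report) for Sox2-KD against control, from 0 to 279 (23) for Cdk9-KD against control, from 90 to 1690 (974) and from 337 to 2021 (1210) for Sox2-KD against the hnRNPK-KD-labelled libraries and Cdk9-KD, and up to 87 (0) and 67 (0) in the other comparisons. Col4a1 and Col4a2 had 40 to 137 counts in the control libraries, and the parts of depth and of spread between libraries in their imprecision were not tested.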
